A study of Mus musculus with 6 samples.

Results

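SOX proteins are transcription factors that bind DNA through an HMG box, and they are sorted into groups by sequence. Sox1, Sox2 and Sox3 form group B1 and keep neural progenitors in an undifferentiated state, and Sox21 (group B2) is known to counteract them. Sox4 (group C) acts in neural and glial progenitors, Sox5 and Sox6 (group D) restrain the differentiation of oligodendrocyte precursors, and Sox8, Sox9 and Sox10 (group E) specify glia, with Sox9 kept by adult astrocytes and Sox10 by the oligodendrocyte lineage. Relatives within a group bind similar sequences and can stand in for each other in some tissues. The levels of 10 SOX genes were therefore compared between spinal cord with and without astrocytic Sox2, to see which relatives rose or fell. These genes were Sox2 itself and 9 relatives, chosen by name from the 35275 genes counted, and all 10 passed the filter on low counts that left 16137 genes for testing.

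Whole spinal cord of 3 Sox2 cKO and 3 control (Ctrl) mice of the C57BL/6 strain was measured by bulk poly(A) RNA-seq. Sox2 cKO mice carried mGfap-Cre and Sox2fl/fl, so Cre under the mouse Gfap promoter removed Sox2 from cells that express or once expressed the transgene. The sample labels describe the controls as mGfap-Cre:Sox2+/+, whereas the series design allows mGfap-Cre or Sox2fl/fl and the study's methods describe littermates with the floxed allele. The age was 90 days in the sample labels and 80 days in the design. The study's methods give 2 females and 1 male in each group, and libraries were not assigned a sex here. The libraries carry numbers, and their groups were taken from mouse numbers on a protein blot, on the assumption that the same mice gave the RNA. Libraries 2, 4 and 6 were Ctrl and libraries 1, 3 and 5 were Sox2 cKO, the order in which values are given throughout, and a replicate of the labels cannot be matched to a library number. Libraries held from 21507911 to 28392184 reads on genes, and the depths of the groups overlapped. In whole tissue, fewer cells of a type and less RNA per cell cannot be told apart.

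CPM, counts relative to the size of the library, were scaled between libraries by TMM, and a gene was called when edgeR's quasi-likelihood test gave an adjusted p below 0.05 over all genes tested. FPKM, which also divides by gene length, was used where levels of SOX genes were compared with each other. Marker lists were summed or averaged in CPM, and SOX genes were set against those means in log2 CPM, for comparison between groups only. Exact permutation tests were two-sided, and their smallest p with 3 mice against 3 is 0.1.

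Sox2 (ENSMUSG00000074637), on chromosome 3 of GRCm38 from 34650405 to 34652461, was the deleted gene and was examined first. Its CPM was 19.9, 14.8 and 29.5 in Ctrl against 3.16, 2.69 and 2.98 in Sox2 cKO. The groups did not overlap, and the Ctrl libraries differed among themselves more than the Sox2 cKO libraries did. Sox2 fell to 13.8% of Ctrl (95% interval 9.53 to 19.9%, adjusted p = 0.00096), and reads on Sox2 remained in every Sox2 cKO library.

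Among the 9 relatives, 3 fell (Sox6, Sox8 and Sox4), 0 rose and 6 did not pass the test. DESeq2 also called 0 relatives higher. The share that fell was 33.33%, where 12.4% of all genes tested were called lower and 12.2% were called higher. The log2 fold change was below 0 for 8 relatives and above 0 for Sox1, and their median was -0.29 against 0.02 over all genes tested. For 4 relatives (Sox4, Sox6, Sox8 and Sox21) all Sox2 cKO libraries had a lower CPM than all Ctrl libraries. Over all genes tested, 44.7% had groups apart in this way, 22.1% lower and 22.6% higher. Among the 6 that were not called, Sox21 had an unadjusted edgeR p below 0.05.

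**Figure D1:**
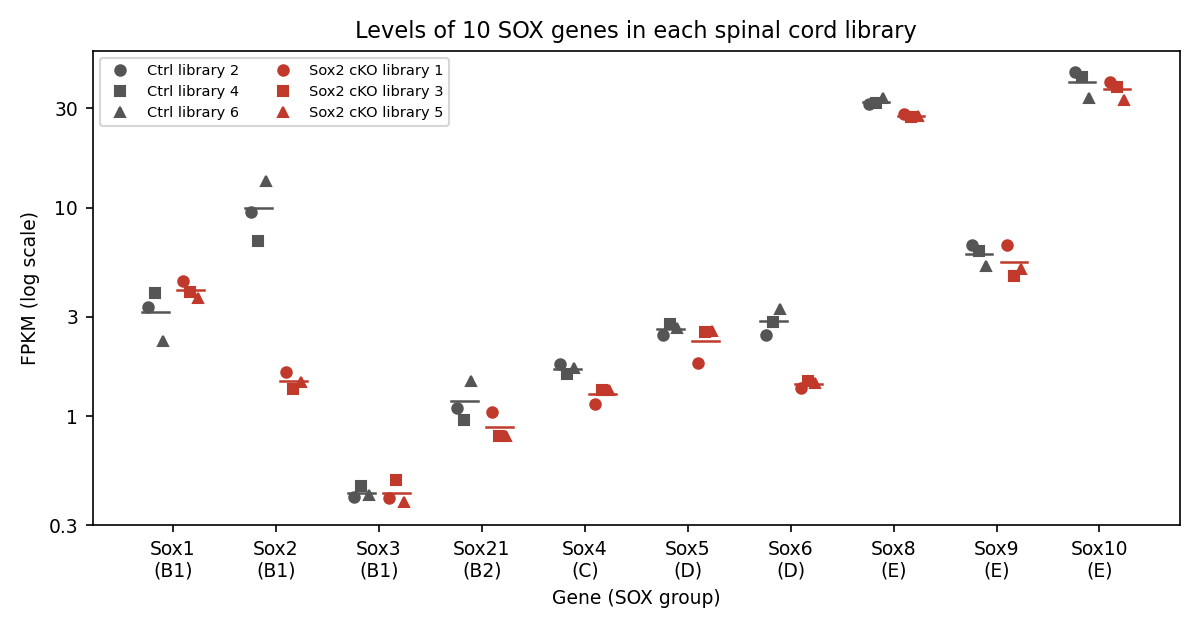
FPKM (log axis) of the 10 SOX genes, ordered by group, in Ctrl libraries (grey) and Sox2 cKO libraries (red). Each point is a library and each short line a group mean of 3 libraries. The groups are apart for Sox2, Sox4, Sox6 and Sox8, and overlap for the other 6 genes.

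Sequences bear on 3 of the members that were called lower, Sox2, Sox6 and Sox8. They are shown because each holds the SOX core motif ACAAAG, one in a site that the study lists as bound by SOX2 in adult cerebral cortex and the others in promoter windows. The Sox8 site lies at mm10 chr17:25561837-25561937, 3955 bases beyond the 3′ end of Sox8 in a window with no annotated gene, and the next coding gene, Lmf1, is 17148 bases away. The promoter windows are those of RefSeq on GRCm38.p6, with 250 bases before and 50 after a transcript's start. The stretch from Sox2 is at chr3:34649777-34649806 and that from Sox6 at chr7:116038840-116038869, each on the strand of its gene. Capitals mark the listed binding sequence of the Sox8 site and the motif in the promoters.
Sox8 site: ggataaagaAAGACAAAGGCtttgccagca
Sox2 promoter: ggggggggggatACAAAGgttccccagcgg
Sox6 promoter: tttttttcaggaACAAAGggaatgtggaaa
The motif was searched on both strands, and 18.7% of 32851 promoter windows held it. For 7 members there were 12 windows, and the motif was in 6 of them, 5 of the 6 windows of Sox6 and the window of Sox2. Counted by gene, 2 of the 7 members held it, and 1 of these was the deleted gene. Windows of the same gene are not independent, so the count of windows is not comparable with the share over all windows. The study found CAAAG or a variant in nearly all of its most enriched sites, so a match in the Sox8 site was likely beforehand. It was not in the windows of Sox1, Sox4, Sox5, Sox8 and Sox21. A match describes letters in a window and is not a site shown to be bound.

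The other SOXB1 genes, Sox1 and Sox3, were the closest relatives of Sox2, and neither was called. Sox1 (ENSMUSG00000096014, chromosome 8, 12395295 to 12400126) had a CPM of 16.3, 19.5 and 11.8 in Ctrl against 20.3, 18.4 and 17.6 in Sox2 cKO. The groups overlapped, with Ctrl library 6 the lowest, in which Sox2 was the highest. The log2 fold change of Sox1 was 0.24 (standard error 0.16, 95% interval -0.12 to 0.59, adjusted p = 0.3), a level between 92.1 and 151.0% of Ctrl. With a correction of each library for its trend of counts with gene length, the log2 fold change of Sox1 was 0.37 (95% interval 0.01 to 0.73), and it was still not called (adjusted p = 0.15). Without the correction, it was 0.42 when Ctrl library 4 was left out and 0.07 when Ctrl library 6 was.

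Sox3 (ENSMUSG00000045179, chromosome X, 60891366 to 60893430) was the least abundant member. It had 19, 24 and 19 reads in Ctrl against 18, 29 and 21 in Sox2 cKO. The groups overlapped, and the interval of its level in Sox2 cKO ran from 60.2 to 144.6% of Ctrl (adjusted p = 0.82). A change within that range was not detectable at this depth.

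Summed over Sox1, Sox2 and Sox3, the FPKM was 13.4, 11.3 and 16.2 in Ctrl against 6.48, 5.78 and 5.55 in Sox2 cKO. The sums did not overlap (exact permutation p = 0.1), and they include Sox2, the deleted gene. That test therefore does not bear on Sox1 and Sox3. Without Sox2, the sum of Sox1 and Sox3 was 3.76, 4.35 and 2.72 in Ctrl and 4.85, 4.43 and 4.08 in Sox2 cKO, a difference of 0.843 FPKM between overlapping groups (exact permutation p = 0.2). The sum of all 3 genes differed by -7.69 FPKM. Sox2 made up 71.9, 61.4 and 83.2% of the sum in Ctrl and 25.1, 23.4 and 26.4% in Sox2 cKO. Sox1 made up 67.7 ± 1.07% in Sox2 cKO (SD, n = 3), the largest part of the 3 genes there, and 24.6 ± 10.1% in Ctrl (SD, n = 3). These shares move with Sox2, the deleted gene.

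**Figure D2:**
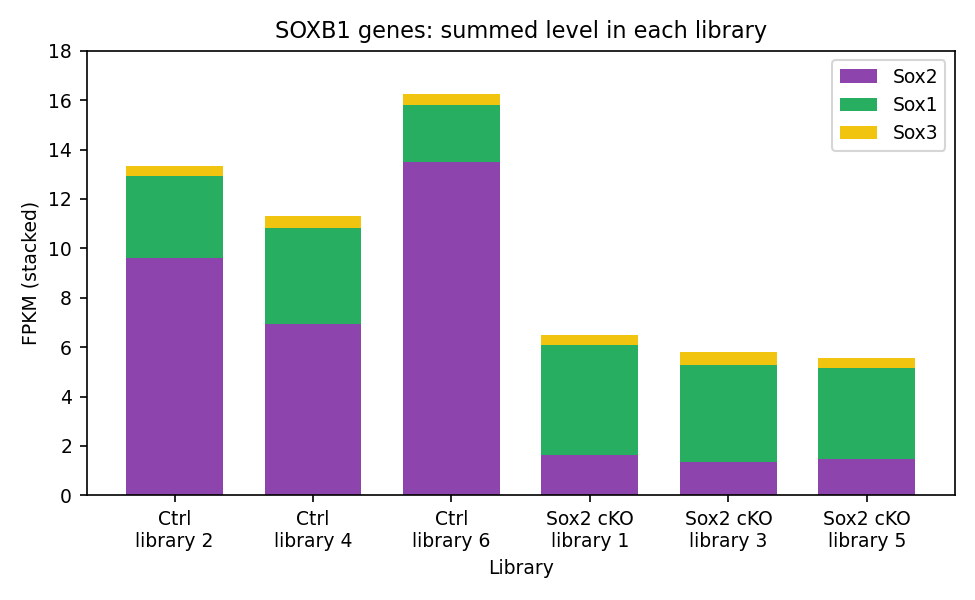
Stacked FPKM of Sox2, Sox1 and Sox3 in each library, from 0, without error bars because each bar is a library. Ctrl bars reach between 11.3 and 16.2, and Sox2 cKO bars between 5.55 and 6.48, with Sox1 the largest part.

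Sox21 (ENSMUSG00000061517, chromosome 14, 118233232 to 118237030), the group B2 member, had a CPM of 4.22, 3.78 and 5.99 in Ctrl and was 3.78, 2.97 and 3.02 in Sox2 cKO. The CPM groups touched without overlapping, and in FPKM, scaled by total counts alone, Sox2 cKO library 1 (1.05) was above Ctrl library 4 (0.958). The log2 fold change was -0.52 (standard error 0.21), and it did not pass the test (adjusted p = 0.098).

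Sox4 (ENSMUSG00000076431, chromosome 13, 28948919 to 28953713) had a CPM of 8.61, 7.98 and 8.64 in Ctrl against 5.18, 6.21 and 6.35 in Sox2 cKO. The 3 Sox2 cKO libraries all lay below the lowest Ctrl value. Sox4 fell to 70.45% of Ctrl (95% interval 56.9 to 87.3%, adjusted p = 0.028). The call was lost with the length correction (log2 fold change -0.38, adjusted p = 0.079). It was also lost with limma on log2 FPKM and in 4 of 6 edgeR fits that left out a library. DESeq2 called Sox4 in 1 of 6 such fits (adjusted p from 0.049 to 0.11). Its group C relatives were not called, with log2 fold changes of -0.27 for Sox11 (adjusted p = 0.2) and 0.15 for Sox12 (adjusted p = 0.33).

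Sox6 (ENSMUSG00000051910, chromosome 7, 115470872 to 116038796) showed the largest decrease among the 9 relatives. Its CPM was 20.3, 24.4 and 28.5 in Ctrl against 10.6, 11.8 and 11.8 in Sox2 cKO. Each Sox2 cKO library was well below the lowest Ctrl library. Sox6 fell to 46.8% of Ctrl (95% interval 38.2 to 57.2%, adjusted p = 0.0075). In edgeR fits that left out a library the log2 fold change ran from -1.21 to -0.97, and the call was lost without Sox2 cKO library 1 (adjusted p = 0.061), a fit in which edgeR called only 5 genes lower and 3 higher in all. DESeq2 called Sox6 in all 6 such fits.

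Sox5 (ENSMUSG00000041540, chromosome 6, 143828425 to 144781977), the close relative of Sox6, had a CPM of 17.9, 20.95 and 20.3 in Ctrl and was 12.3, 17.7 and 18.4 in Sox2 cKO, so that Sox2 cKO library 1 was low and library 5 reached into the Ctrl range. It was not called (log2 fold change -0.29, 95% interval -0.62 to 0.04, adjusted p = 0.18). Within a library, the log2 FPKM ratio of Sox6 to Sox5 was 0.00, 0.03 and 0.31 in Ctrl and -0.40, -0.77 and -0.83 in Sox2 cKO. The ratios did not overlap (exact permutation p = 0.1, for a pair chosen after the values were seen).

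Sox5 and Sox6 are long, with gene models of 7243 and 8227 bases where the median of tested genes was 3060. Fold changes moved with length in these libraries, and the 1046 tested genes at least as long as Sox5 had a median log2 fold change of -0.35. Of these, 0.860% were as low as Sox6 or lower. With the length correction, Sox6 stayed lower (log2 fold change -0.78, 95% interval -1.0 to -0.55, adjusted p = 0.013), where 7.01% of tested genes were called lower and 6.05% higher, and Sox5 had a log2 fold change of -0.01 (95% interval -0.27 to 0.24).

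**Figure D3:**
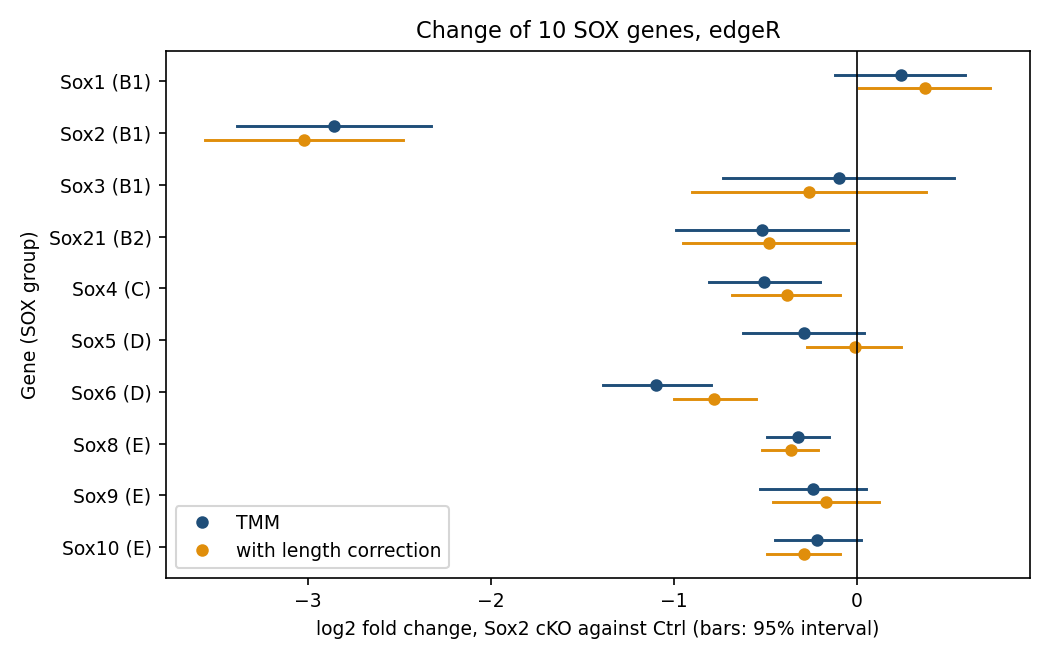
Log2 fold change of the 10 SOX genes in Sox2 cKO against Ctrl from edgeR, with 95% intervals as bars, after TMM scaling (blue) and with a correction for gene length (orange). Sox6 goes from -1.10 to -0.78 and Sox5 from -0.29 to -0.01, and Sox8 from -0.32 to -0.36.

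Sox8 (ENSMUSG00000024176, chromosome 17, 25565892 to 25570686) had a CPM of 94.7, 98.8 and 107.5 in Ctrl against 79.9, 79.6 and 81.3 in Sox2 cKO. The Sox2 cKO libraries were close together, and all were below the Ctrl libraries. Sox8 fell to 80.05% of Ctrl (95% interval 71.3 to 89.9%, adjusted p = 0.018), a smaller change than that of Sox6. In edgeR fits without a library its log2 fold change stayed between -0.36 and -0.27, but 4 of the 6 fits no longer called it (adjusted p up to 0.075), while DESeq2 called it in all 6. An antisense gene, 2810468N07Rik, shares 329 bases of exon with Sox8 (chromosome 17, 25570358 to 25570686). Its counts were 1140, 696 and 707 in Ctrl and 1431, 1574 and 1316 in Sox2 cKO, a log2 fold change of 0.54 that did not pass the test (adjusted p = 0.052). The strand setting of the counting is not given in the sources used here, so reads in the shared stretch may not be told apart.

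Sox10 (ENSMUSG00000033006, chromosome 15, 79154908 to 79165240) had a CPM of 122.1, 119.5 and 96.6 in Ctrl and was 103.3, 99.7 and 87.9 in Sox2 cKO. The groups overlapped through Ctrl library 6, and Sox10 was not called (log2 fold change -0.22, 95% interval -0.45 to 0.02, adjusted p = 0.15). With the length correction, its log2 fold change was -0.29 (95% interval -0.49 to -0.09) and still did not pass (adjusted p = 0.058).

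Sox9 (ENSMUSG00000000567, chromosome 11, 112782224 to 112787760) had a CPM of 27.6, 26.8 and 23.0 in Ctrl against 26.0, 18.9 and 20.8 in Sox2 cKO. Sox2 cKO library 1 stood within the Ctrl range, and the other two were below it. Sox9 was not called (log2 fold change -0.24, 95% interval -0.53 to 0.05, adjusted p = 0.19). The summed FPKM of Sox8, Sox9 and Sox10 was 82.7, 80.2 and 72.5 in Ctrl and 75.2, 70.0 and 65.3 in Sox2 cKO, with overlap between the groups (exact permutation p = 0.2). When FPKM was rescaled by TMM, the scaling of the CPM, the sums were 83.2, 83.5 and 77.0 in Ctrl against 71.0, 67.8 and 64.55 in Sox2 cKO, and the groups came apart (exact permutation p = 0.1). Within a library, the ratios of Sox8 to Sox10 (exact permutation p = 0.6) and of Sox9 to Sox10 (p = 0.9) overlapped between the groups.

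**Figure D4:**
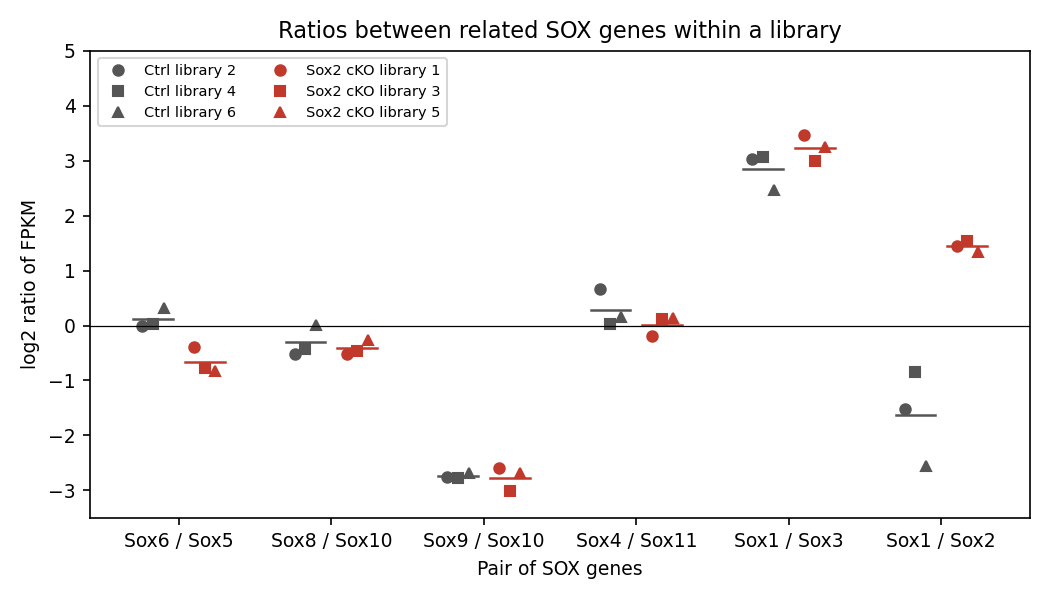
Log2 ratio of FPKM between pairs of SOX genes within each library, in Ctrl (grey) and Sox2 cKO (red), with a short line at each group mean. Sox6 against Sox5 and Sox1 against Sox2 are apart between the groups, and the other 4 pairs overlap.

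By FPKM, the order in Ctrl was Sox10 (40.2 ± 5.88, SD, n = 3), Sox8 (32.2 ± 1.31), Sox2 (10.01 ± 3.31), Sox9 (6.03 ± 0.709), Sox1 (3.18 ± 0.804), Sox6 (2.86 ± 0.407), Sox5 (2.63 ± 0.161), Sox4 (1.69 ± 0.0917), Sox21 (1.18 ± 0.272) and Sox3 (0.431 ± 0.0294). The libraries of Sox10 and Sox8 overlapped, as did those of Sox1 with Sox6 and of Sox6 with Sox5, and the other neighbours in the order did not. In Sox2 cKO, Sox2 (1.48 ± 0.138, SD, n = 3) came sixth, beside Sox6 (1.43 ± 0.0617), whose libraries it overlapped. Sox10, Sox8, Sox9, Sox1 and Sox5 were above them.

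The members were set beside markers of the cells that express them. Of 15 astrocyte markers, 7 fell and S100b, a calcium-binding protein of glia, rose (log2 fold change 0.71), and their summed CPM was 10550 to 12570 in Ctrl and 8336 to 8687 in Sox2 cKO. The lowest was Gfap, the intermediate filament of astrocytes (log2 fold change -1.11). The mGfap promoter also drives the Cre. Among the markers listed first, Aqp4, a water channel, was at -0.44 and Slc1a2, a glutamate transporter, at -0.62. The decrease of the summed CPM came mostly from Gfap (mean 2841 in Ctrl and 1312 in Sox2 cKO) and Slc1a2 (2541 and 1658). The mean log2 CPM of the 15 differed by -0.23 without overlap (exact permutation p = 0.1), and 10 of them had a log2 fold change below 0. Over all genes tested, 12.4% were called lower and 12.2% higher, and with the length correction 7.01% and 6.05%. With the length correction, 4 of the 15 were called lower, Gfap and Aqp4 among them, and 0 higher, with S100b at 0.47 (adjusted p = 0.062) and Slc1a2 at -0.21 (adjusted p = 0.094). Relative to the mean log2 CPM of the astrocyte markers, Sox9 differed by -0.02 (exact permutation p = 0.9) and Sox6 by -0.86, or by -0.53 with the length correction, without overlap (exact permutation p = 0.1 each). The ratio of Sox6 was not among those planned. Sox6 was itself called lower with its groups apart, so that its p-values here add no support to its decrease.

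Of 9 tested oligodendrocyte precursor markers, 7 fell and 0 rose, with a median log2 fold change of -0.46. Their summed CPM was 269.8 to 325.6 in Ctrl and 165.0 to 222.9 in Sox2 cKO. Pdgfra, the growth factor receptor of these cells, was at -0.37, Cspg4 (the proteoglycan NG2) at -0.67, C1ql1 at -0.36 and Tnr, a matrix glycoprotein, at -1.15, while Matn4 was at -0.08 and did not pass. With the length correction, 4 of the 9 were called lower, C1ql1 (-0.63), Tnr (-1.06), Xylt1 (-0.89) and Gpr17 (-0.72). Pdgfra (-0.13, adjusted p = 0.24 by edgeR), Cspg4 (-0.35, adjusted p = 0.061) and Vcan (-0.0, adjusted p = 0.99) lost their calls. The share of all genes tested that was called lower was 12.4%, and 7.01% with the length correction. Sox6 relative to these markers differed by -0.48, and by -0.31 with the length correction, without overlap (exact permutation p = 0.1 each). This ratio was also not among those planned, and it was taken for a gene already called lower. The part of these cells in the decrease of Sox6 was not tested.

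Of 15 oligodendrocyte markers, Tspan2 fell (log2 fold change -0.44) and 0 rose, and their summed CPM overlapped, with 33790 to 37760 in Ctrl and 33920 to 36500 in Sox2 cKO. Their mean log2 CPM was 9.17, 9.06 and 9.11 in Ctrl against 9.05, 8.97 and 9.03 in Sox2 cKO, lower without overlap (exact permutation p = 0.1). DESeq2 and the length correction each called 5 of the 15 lower. Over all genes tested they called 15.0% and 7.01% lower, and edgeR without the correction 12.4%. The myelin genes Mbp and Mag were at 0.19 and -0.08, and neither was called by edgeR. Relative to the mean of these markers, Sox8 differed by -0.22 without overlap (exact permutation p = 0.1) and Sox10 by -0.11 with overlap (exact permutation p = 0.4).

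Genes known to act with SOX proteins, a list of POU, NFI, OLIG and related factors, were examined next. Of 16 tested, 5 fell, and the median log2 fold change was -0.24. Over all genes tested, 12.4% were called lower and the median was 0.02. In this list, 0 rose by edgeR or DESeq2 in any fit with all libraries or without a library. The 5 were Nfia (-0.80) and Nfix (-0.41), factors of glial differentiation, the chromatin remodeller Chd7 (-0.59), Zeb2 (-0.50) and Myrf (-0.42), which drives myelination. Pax6 was the highest (0.30) and did not pass. With the length correction, only Olig1 was called lower in this list (log2 fold change -0.33, adjusted p = 0.034), and none of the 5 was. The share called lower over all genes tested was then 7.01%.

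Of 9 further SOX genes, 7 were tested and 0 were called by edgeR, where 24.6% of all genes tested were called. An unadjusted edgeR p below 0.05 was reached by 0 of them, and DESeq2 also called 0. Their log2 fold changes ran from -0.27 (Sox11) to 0.47 (Sox17). Sox17 and Sox18 (0.37) are vascular genes of group F, as is Sox7 (-0.04). Sox13 of group D was at -0.03 and Sox14 of group B2 at -0.16. Sox15 (0 to 2 reads) and Sox30 (0 to 11 reads) were too low to test. Among genes that overlap a member or carry its name, Sox1ot, which shares 0 exon bases with Sox1, had at most 67 reads (log2 fold change -0.25, adjusted p = 0.48), and Sox2ot was not analysed here. Sox6os reached 9 reads and Gm4675, which overlaps Sox21, reached 11.

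The genes most like Sox2 in log2 CPM over the 6 libraries were Schip1 (Pearson's r = 0.995), Plekhd1 (0.994) and Kctd20 (0.993). Those most like Sox9 were Aif1l (0.994), Col4a6 (0.988) and Morn4 (0.982). For Sox10 they were Fosb (0.990), Kcnk13 (0.980) and Bbs10 (0.967). These are the 3 highest of 13323 genes for each, over points that share libraries and depth, and are given as a description. The 6 libraries span both groups, so a difference between the groups enters r.

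**Figure D5:**
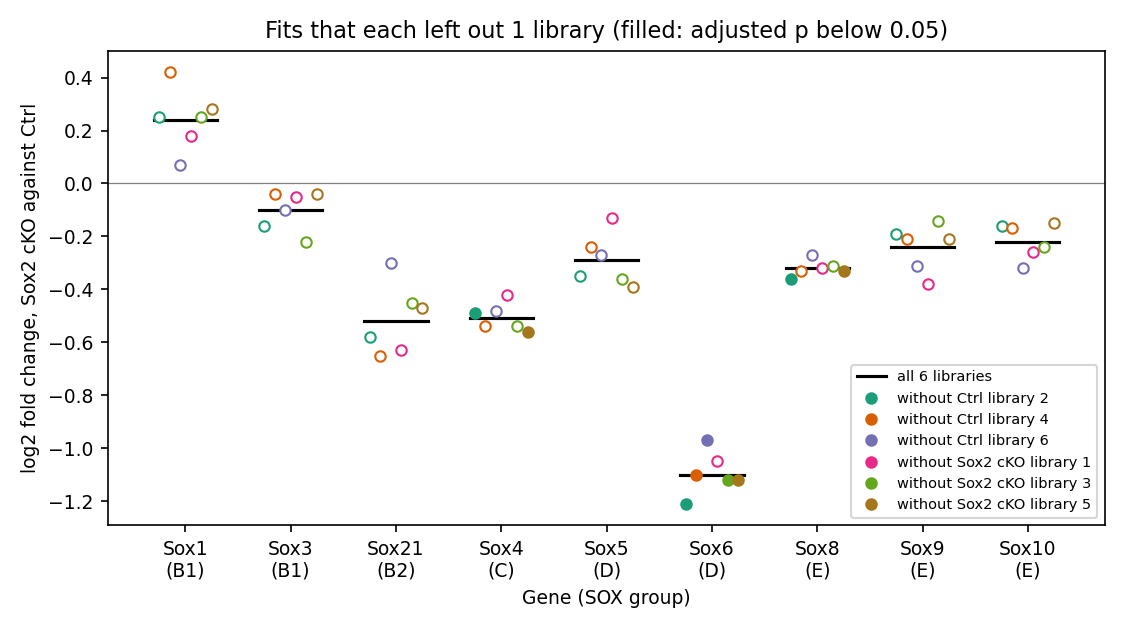
Log2 fold change of the 9 relatives of Sox2 in edgeR fits that each left out a library, with a black line for all 6 libraries. Filled points have an adjusted p below 0.05. Sox6 stays between -1.21 and -0.97 with 5 filled points of 6, and Sox8 and Sox4 have 2 filled points each.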

How the data were processed

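Single-end reads of poly(A) RNA, prepared with a directional kit, came from whole spinal cords of 3 Sox2 cKO and 3 Ctrl mice. The submitters' processing notes name STAR 2.5, HTSeq 0.6.1 and mm10. The authors deposited unnormalized counts per gene, and FPKM values the authors derived from those counts. Groups of columns came from mouse numbers, and there were 0 columns of other samples. GENCODE M21 (GRCm38, the build of mm10) named 34490 of 35275 identifiers.

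The count test was that of edgeR 4.0.16 in R 4.3.3 (filterByExpr, TMM, quasi-likelihood test without covariates, Benjamini-Hochberg adjustment at 0.05). Common biological variation was 0.119. Intervals of fold changes are unadjusted. Log2 CPM used a pseudocount of 0.5. P-values measure the spread between the mice. The fits were tested on simulated data. Members and lists were chosen with earlier results of these data known. Named were all members and further SOX genes, overlapping genes, the 3 genes most like Sox2, Sox9 and Sox10 (mean count 50 or more) and the extremes and first 3 of each list. Others were named after their values were seen, and some list genes are not reported here.

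Alternatives were DESeq2 1.42.0, RLE and upper quartile scaling, no filter, at least 10 counts in every sample, limma 3.58.1 on log2 FPKM with pseudocounts of 1 and 0.1 (mean FPKM of at least 0.5), corrections for length or GC content (lowess, span 0.3) and fits without a library. After seeing the data, the fits without a library were also made with DESeq2.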

Additional observations from a re-analysis of the deposited data

How the results depend on the processing

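In 9 alternatives that kept all libraries, Sox2, Sox6 and Sox8 were called lower in each, and Sox4 in 6. The other members were called in none, and directions stayed the same wherever a member was tested. The limits are 3 mice a group, few reads on Sox3, an unstated strand setting and fold changes that move with gene length. Without Sox2 cKO library 1 edgeR called 5 genes lower and 3 higher. No paired analysis was possible because the sources used here give no litter, sex or pairing for a column.

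Called lower over all genes were 915 and 896 by limma (pseudocount 1 and 0.1 on FPKM) and 1131 with the length correction, which called 976 higher. The median log2 fold change of all genes was 0.09 and 0.11 in the limma fits. Without a library, edgeR called 5 to 3089 genes lower and 3 to 3030 higher, and DESeq2 1094 to 3004 and 887 to 2620 (1276 lower and 1014 higher without Ctrl library 6, and 971 and 1093 higher without Sox2 cKO library 1 or 3). Members called lower were 1 to 4 by edgeR and 3 to 4 by DESeq2, and 0 were called higher. DESeq2 called Sox10 without Ctrl library 6 (adjusted p = 0.026) and Sox9 without Sox2 cKO library 1 (adjusted p = 0.047), as edgeR called Sox11 without Ctrl library 2 (adjusted p = 0.014). Further SOX genes called were 0 to 1 by either tool.

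Among the lists, the limma fits called lower 2 SOX partner factors, 4 astrocyte markers, 4 oligodendrocyte precursor markers and 0 ependymal markers, and 3 neuron markers higher. The length correction called lower 1 partner factor, 4 astrocyte markers (0 higher), 5 oligodendrocyte markers, 4 precursor markers and 1 microglia marker. The GC correction called lower 2 oligodendrocyte markers, 1 neuron marker and 1 microglia marker, and RLE scaling 1 microglia marker. DESeq2 called 5 oligodendrocyte markers, 1 neuron marker and 2 microglia markers lower, and 3 neuron, 2 endothelial and 2 microglia markers higher. Upper quartile scaling called 3 neuron, 2 endothelial and 2 microglia markers higher. Without a filter 2 neuron, 3 endothelial and 3 microglia markers were higher and 2 microglia markers lower, and with at least 10 counts 2 of each of these 3 lists were higher.

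Without a library, lower calls by edgeR and by DESeq2 were 0 to 8 and 4 to 9 for partner factors, and for markers 0 to 7 and 5 to 9 (astrocyte), 0 to 1 and 1 to 5 (oligodendrocyte), 0 to 8 and 2 to 7 (precursor), 0 and 0 to 1 (Schwann cell), 0 to 2 by either (microglia) and 0 to 1 by either (ependymal, neuron, endothelial). Higher calls were 0 to 1 (astrocyte), 0 to 2 (oligodendrocyte, microglia) and 0 to 3 (neuron) by either, and 0 to 3 and 1 to 3 (endothelial).

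The summed FPKM of Sox8, Sox9 and Sox10 differed by -8.32 between the groups, and by -13.43 when FPKM was rescaled by TMM, where the groups no longer overlapped. Signs turned for further SOX genes near 0. Sox7 was at 0.01 with upper quartile scaling, and from -0.27 to 0.12 without a library. Sox11 was at 0.06 with the length correction. Sox13 was at 0.01 with upper quartile scaling, 0.05 and 0.07 by limma, and from -0.09 to 0.01 without a library. Sox14 was from -0.5 to 0.13 without a library. The cause of these changes was not tested.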

Other observations

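Markers of other cells of the spinal cord were measured beside the SOX genes, and most were not called. Over all genes tested, edgeR called 12.4% lower and 12.2% higher. Of 8 Schwann cell markers, which were fixed because Schwann cells also express Sox10, 0 were called by edgeR or DESeq2 with all libraries. Prx and Pmp2 had log2 fold changes of -0.21 and -0.08, between Egr2 (0.48) and Ngfr (-0.26), and the summed CPM was 75.5 to 117.8 in Ctrl and 90.4 to 112.4 in Sox2 cKO. Of 7 tested ependymal markers, Foxj1, a regulator of motile cilia, fell (-0.35), Ccdc153 and Tmem212 were at 0.07 and -0.19, and Rarres2 was the highest (0.39). Their summed CPM was 53.7 to 63.9 in Ctrl and 47.6 to 51.4 in Sox2 cKO, mostly from Foxj1 (mean 42.5 and 33.4). Their mean log2 CPM, 1.7, 1.48 and 1.82 in Ctrl and 1.64, 1.47 and 1.69 in Sox2 cKO, overlapped (exact permutation p = 0.5).

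Of 12 neuron markers, Stmn2 rose (log2 fold change 0.30) and 0 fell, with Snap25 at 0.35, Syt1 at -0.03, Rbfox3 at 0.15 and Nefm at -0.28, and a summed CPM of 9126 to 9721 in Ctrl and 9363 to 9643 in Sox2 cKO. With the length correction, Stmn2 was at 0.13 and lost its call (adjusted p = 0.26), and Snap25, at 0.48, was called higher (adjusted p = 0.04). Of 8 endothelial markers, the cells that express Sox17 and Sox18, Ly6c1 rose (1.09), and Cldn5 (0.69), Pecam1 (0.32) and Flt1 (-0.26) did not pass. The summed CPM of the endothelial markers was 211.9 to 239.9 in Ctrl and 227.6 to 327.2 in Sox2 cKO. Their mean log2 CPM was 4.38, 4.39 and 4.47 in Ctrl against 5.09, 4.51 and 4.55 in Sox2 cKO, higher without overlap (exact permutation p = 0.1). Of 8 microglia markers, Trem2 rose (0.74), and Cx3cr1 (-0.37), P2ry12 (-0.06), Tmem119 (-0.01) and Csf1r (-0.38) did not pass, with a summed CPM of 265.1 to 305.5 in Ctrl and 225.6 to 320.4 in Sox2 cKO.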
